A study of Mus musculus with 16 samples.

Results

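Heme synthesis was examined through 8 enzyme genes, Alas1, Alas2, Alad, Uros, Urod, Cpox, Ppox and Fech. The genes were taken by symbol from the stroma table (13344 genes) and the tumor table (15080 genes), and each table listed all 8. Each of them also passed the filter used for testing, a mean normalized count over 10. They are enzymes of a single pathway, named by function.

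Heme is the iron-holding ring of hemoglobin and of many respiratory and detoxifying enzymes, and its synthesis starts and ends in the mitochondrion with a middle stretch in the cytosol. Every nucleated cell makes some heme through the ubiquitous first enzyme ALAS1, whose level heme itself holds down. Erythroid precursors switch to a separate first enzyme, the X-linked ALAS2, which is regulated by erythroid transcription factors and iron and supplies heme for hemoglobin.

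B-ALL cells, which model human BCR-ABL+ B-cell acute lymphoblastic leukemia, were injected by tail vein (500000 per mouse) into C57BL/6J mice, and bone marrow was taken from untreated mice 8 days later. Red cells were lysed, and live singlets were sorted into mCherry+ cells, named tumor, and mCherry- cells, named stroma. The groups were WT tumor, IL-6 KO tumor, WT stroma and IL-6 KO stroma, with 4 libraries in each. Hosts were bought at 6 to 8 weeks of age and were either wild type (WT) or Il-6-/- (IL-6 KO). The study used both sexes, and the host sex behind each library is not given in the sources used here. The leukemic cells were BCR-ABL+ and Arf-/- in hosts of both genotypes and came from 1 line of male origin, so that IL-6 was removed from the host and not from the tumor cells. The mCherry- gate took in all host marrow cells that survive red cell lysis, nucleated erythroid cells and leukocytes included.

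The values are normalized counts, read estimates scaled by the authors within each table. Their sums were 8805690 to 17470700 per WT stroma library and 33973000 to 44192000 per IL-6 KO stroma library. In tumor they were 38817800 to 44552100 per WT library and 47267000 to 55593000 per IL-6 KO library. The sums of the genotypes thus overlapped in neither compartment, and these sums are not depths. The number of reads behind each value is unknown. In stroma, the 7SL RNA Rn7s1 held 19.2 to 50.1% of the sum in WT libraries, 71.5 to 79.0% in IL-6 KO libraries 1 to 3 and 10.9% in IL-6 KO library 4, against 3.40 to 6.24% in tumor. IL-6 KO stroma library 4 joined that low share to a sum of 33973000. Its sum outside Rn7s1 was thus the largest of the stroma libraries, and the effect of this on its values was not tested. Spearman correlations between libraries of a group, across genes, were 0.709 to 0.895 in stroma and 0.976 to 0.991 in tumor. In tumor the B-lineage markers Cd79a and Ebf1 had normalized counts of 12508 to 25936. Of 10 markers of non-hematopoietic stroma 6 are in the stroma table, Col1a1 at 73.3 to 1517 among them, and Cxcl12 and Cdh5 are not, while erythroid Hba-a1 had 20579 to 81625 there and neutrophil S100a8 534 to 1534. The removed gene Il6 is in neither table, so the host genotype has no check. The labels do not say that libraries came from separate mice, so p-values measure only the spread between these libraries.

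The bases before the start of Alas2 and Cpox are shown because both hold the motif that erythroid GATA factors read, and those of Uros because 1 of its start sites does too. Sequences are from RefSeq on GRCm38.p6, written 5′ to 3′ on the gene's strand, with bases in annotated exons left out. Capitals mark matches on either strand to AGATAA, to AGATAG, to TGATAA or to TGATAG. Alas2 is shown at chrX:150547167-150547374 (+ strand, bases -250 to -43 from the start), Cpox at chr16:58669958-58670207 (+ strand, bases -250 to -1) and Uros, at its second listed start, at chr7:133702617-133702750 (- strand, bases -250 to -117).
Alas2: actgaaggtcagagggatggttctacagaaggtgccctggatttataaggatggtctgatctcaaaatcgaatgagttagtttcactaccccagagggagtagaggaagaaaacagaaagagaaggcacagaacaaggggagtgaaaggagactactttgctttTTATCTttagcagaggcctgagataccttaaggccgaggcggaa
Cpox: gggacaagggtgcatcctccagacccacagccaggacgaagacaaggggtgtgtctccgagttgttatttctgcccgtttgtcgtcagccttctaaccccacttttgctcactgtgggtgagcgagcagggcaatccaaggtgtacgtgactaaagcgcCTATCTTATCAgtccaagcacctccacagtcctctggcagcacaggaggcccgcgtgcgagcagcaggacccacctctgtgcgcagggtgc
Uros: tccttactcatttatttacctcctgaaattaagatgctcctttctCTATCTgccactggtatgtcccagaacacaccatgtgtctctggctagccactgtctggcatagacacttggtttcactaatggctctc

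The Alas2 match lies at bases -86 to -81, and Cpox holds 2 matches that share a base, at -91 to -86 and at -86 to -81. Uros holds 1 match at -205 to -200 and another, at -68 to -63, among the bases not shown. No match was found in the 250 bases before the listed starts of Alas1, Alad, Urod and Ppox or before the other start of Uros. The Alas1 windows are not shown because 250 and 235 of their 250 bases lie in annotated exons, and Fech was not searched. A match of this kind is common, at 26.5% of 32851 mouse promoters searched over the same length. The motif CCACCC, read by Kruppel-like factors such as erythroid KLF1, was found 3 times in overlapping copies at bases -40 to -25 of Alas2 and 1 time before Alas1, against 28.1% of promoters with any match. All of these CCACCC matches lie in bases of annotated exons. GCATGCG, part of the NRF1 motif, was found at a single palindromic place before 1 start of Alas1 and before no other enzyme searched, against 3.02% of promoters. These matches describe the letters of the windows and are not binding data.

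Alas2, the erythroid first enzyme (chrX:150547375-150570638 on the + strand, GRCm38), had the highest mean level per kb of the enzymes in stroma and the lowest in tumor. WT stroma libraries 1 to 4 held normalized counts of 3783, 4570, 3401 and 5305, and IL-6 KO stroma libraries 1 to 4 held 2039, 3397, 5332 and 1104. IL-6 KO libraries 1, 2 and 4 lay below every WT library, library 2 by a few counts, while IL-6 KO library 3 lay just above them all, so the groups overlapped. In tumor the counts were 75.9, 32.2, 6.69 and 17.6 in WT and 18.2, 26.4, 42.7 and 10.7 in IL-6 KO. All 4 IL-6 KO values lay inside the WT range.

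Alas1, the ubiquitous first enzyme (chr9:106233455-106248654 on the - strand), had the lowest mean level per kb in stroma and a middle place in tumor. Its normalized counts in stroma were 75.8, 156, 145 and 172 in WT and 300.4, 390.2, 92.9 and 619 in IL-6 KO. Here IL-6 KO libraries 1, 2 and 4 lay above every WT library, and IL-6 KO library 3 lay within the WT range. In tumor the counts were steady, at 1183, 1217, 1323 and 1219 in WT and 1103, 1487, 1036 and 1286 in IL-6 KO. The tables were scaled separately, so a stroma level and a tumor level are not on a common scale.

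A ratio of both genes within a library does not depend on that scale. Per kb of transcript, Alas2 stood at 39.2 to 83.3 times Alas1 in WT stroma, 2.97 to 95.7 times in IL-6 KO stroma, 0.00844 to 0.107 times in WT tumor and 0.0139 to 0.0687 times in IL-6 KO tumor. Alas2 was thus the higher of the pair in all 8 stroma libraries and Alas1 in all 8 tumor libraries. No test was made across the tables. On the log2 scale the ratio (normalized count + 1, not divided by length) was 5.62, 4.86, 4.54 and 4.94 in WT stroma, a mean of 4.99 ± 0.45 (SD, n = 4). In IL-6 KO stroma it was 2.76, 3.12, 5.83 and 0.83, a mean of 3.13 ± 2.06 (SD, n = 4). The difference of -1.86 did not pass an exact permutation test (two-sided, p = 0.143, where the smallest p that 4 libraries against 4 allow is 0.0286). Of the IL-6 KO libraries, 3 of 4 were below every WT library and the other, library 3, was above them all. Without that library the difference was -2.76 and the exact permutation p was 0.0286, and without IL-6 KO stroma library 4 they were -1.09 and 0.257. With library 3 gone every IL-6 KO library lay below every WT library, so the p of 0.0286 restates the count above and is no further support. In tumor the mean ratio was -5.65 ± 1.46 for WT and -5.74 ± 0.91 for IL-6 KO libraries (SD, n = 4 each), a difference of -0.09 (exact permutation test, two-sided, p = 0.943). It turned to 0.48 when WT tumor library 1 was left out, to 0.06 for WT tumor library 2 and to 0.26 for IL-6 KO tumor library 4.

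**Figure D1:**
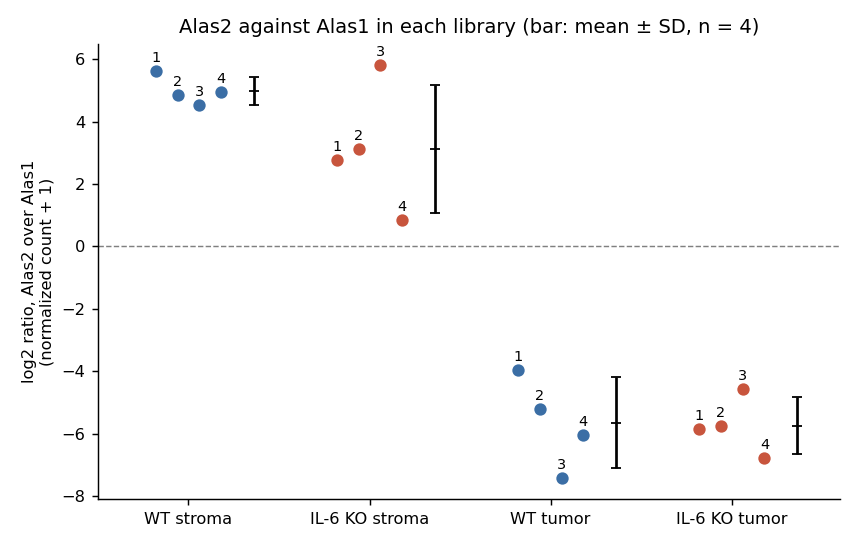
The log2 ratio of Alas2 over Alas1 (normalized count + 1) for each library of the 4 groups, with library numbers above the points and a bar for the mean ± SD (n = 4). All stroma points lie above 0 and all tumor points below it, and IL-6 KO stroma runs from 0.83 to 5.83 while WT stroma stays between 4.54 and 5.62.

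In stroma the erythroid markers moved with Alas2 and the neutrophil markers with Alas1. The mean log2 value over 22 erythroid markers (hemoglobins, red cell membrane proteins, erythroid factors and others) was 11.5, 11.9, 11.3 and 11.9 in WT and 10.2, 11.4, 12.1 and 10.2 in IL-6 KO, with library 3 the highest of the IL-6 KO group as it was for Alas2. None of the 22 was at 0 throughout a group, and their summed normalized count was 165010 to 237213 in WT and 70336 to 290537 in IL-6 KO. The mean log2 value of Alas2 less that of the erythroid markers was 0.26 to 0.46 in WT and -0.06 to 0.79 in IL-6 KO, 2 ranges that overlap. The mean log2 value over 14 neutrophil markers was 7.68 to 8.42 in WT and 8.76, 8.89, 7.49 and 9.45 in IL-6 KO, with library 3 again the exception, as it was for Alas1. The summed neutrophil count was 7643 to 14514 in WT and 8044 to 33216 in IL-6 KO. In these bulk samples fewer cells of a type and less RNA per cell cannot be told apart, and the part of cell makeup in the enzymes' values was not tested.

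**Figure D2:**
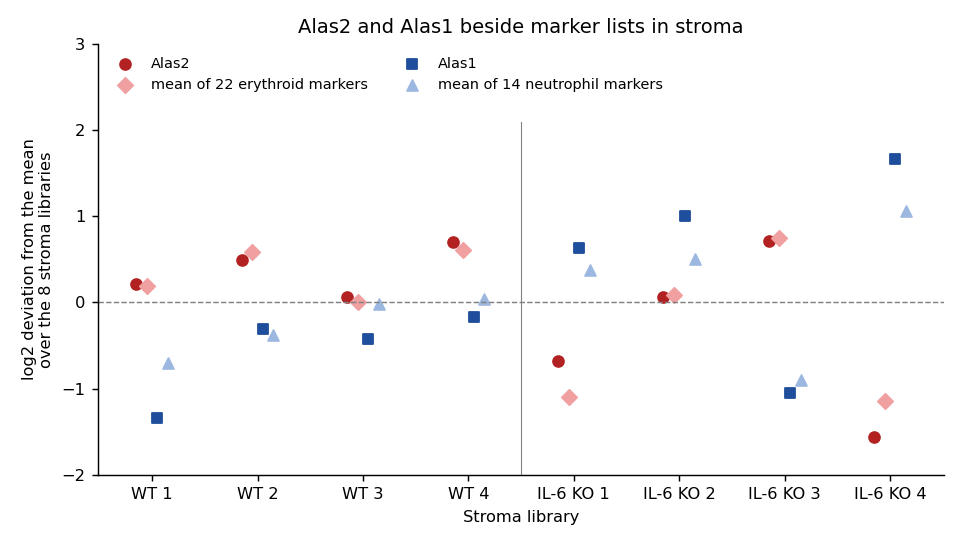
Log2 deviation of Alas2, Alas1, the mean of 22 erythroid markers and the mean of 14 neutrophil markers from their own mean over the 8 stroma libraries. In IL-6 KO libraries 1 and 4 Alas1 and the neutrophil mean lie above 0 and Alas2 and the erythroid mean below it, and in IL-6 KO library 3 the sides are exchanged.

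In tumor the erythroid factor Gata1 is not listed, and 15 of the 24 erythroid markers are. Their mean log2 value was 7.04, 6.95, 5.78 and 6.78 in WT and 6.52, 6.98, 7.48 and 6.32 in IL-6 KO, lowest in WT library 3, where Alas2 was lowest too. Hba-a1, an alpha globin, had 779, 616, 208 and 576 in WT tumor and 524, 783, 1426 and 349 in IL-6 KO tumor. The part of residual erythroid RNA in the tumor libraries' Alas2 was not tested.

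The next enzymes act in the cytosol. ALAD joins molecules of aminolevulinate into the first pyrrole, UROS closes the ring into uroporphyrinogen III and UROD trims its side chains. Their genes lie at chr4:62509169-62519918 (Alad), chr7:133686243-133710072 (Uros) and chr4:116989965-116994413 (Urod), all on the - strand. In stroma Alad had normalized counts of 1070, 880, 816 and 1113 in WT and 347, 762, 1218 and 489 in IL-6 KO. Uros had 577, 611, 301 and 604 in WT and 157, 432, 518 and 255 in IL-6 KO. Urod had 1187, 1098, 816 and 1549 in WT and 574, 1506, 2017 and 541 in IL-6 KO. IL-6 KO libraries 1 and 4 were the lowest pair for each of these genes, and the groups overlapped for each.

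In tumor Alad had 1932, 1685, 1644 and 1781 in WT and 1557, 2007, 1615 and 1623 in IL-6 KO. Uros had 419, 499.9, 379 and 619 in WT and 544, 474, 446 and 490.0 in IL-6 KO. Urod had 1300.0, 1161, 1303 and 1505 in WT and 1968, 1697, 1462 and 1367 in IL-6 KO. For Urod, 2 of 4 IL-6 KO libraries lay above every WT library and none below the WT range. The Uros values of IL-6 KO tumor lay inside the WT range.

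The last enzymes return to the mitochondrion. CPOX and PPOX oxidize the ring to protoporphyrin IX, and FECH, which holds an iron-sulfur cluster, inserts the iron. Cpox lies at chr16:58670292-58717636 on the + strand and Ppox at chr1:171275990-171281186 on the - strand. In stroma Cpox had 3837, 4972, 2924 and 3698 in WT and 553, 2365, 6170 and 1264 in IL-6 KO. Ppox had 1990, 1695, 1221 and 2279 in WT and 1633, 1742, 5046 and 1049 in IL-6 KO. Fech had 3993, 4157, 2766 and 3955 in WT and 1377, 2447, 2704 and 1859 in IL-6 KO. For Fech alone among the 8 enzymes, every IL-6 KO stroma library lay below every WT library, with a narrow gap between IL-6 KO library 3 and WT library 3.

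In tumor Cpox had 1433, 1332, 1334 and 1642 in WT and 1675, 1737, 1690.3 and 1675 in IL-6 KO. For Cpox alone among the 8 enzymes, every IL-6 KO tumor library lay above every WT library, the nearest being WT library 4. Ppox had 703, 578, 502 and 733 in WT and 700.3, 560, 763 and 801 in IL-6 KO. Fech had 304, 379, 368 and 416 in WT and 221, 358, 239 and 353 in IL-6 KO, with IL-6 KO libraries 1 and 3 below the WT range.

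**Figure D3:**
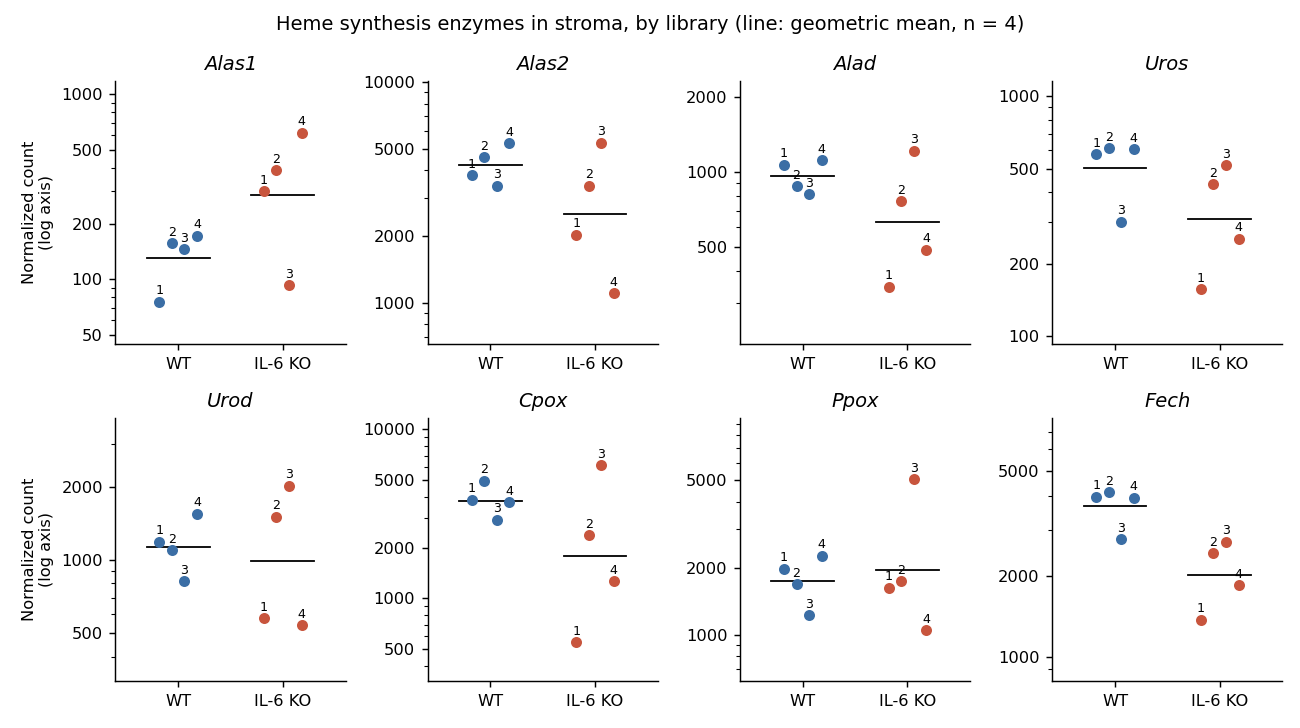
Normalized counts (log axes) of each enzyme in the 4 WT and 4 IL-6 KO stroma libraries, numbered, with a line at the geometric mean of each group (n = 4). IL-6 KO library 3 is the highest of the 8 libraries for 5 of the enzymes, and Fech is the only enzyme without overlap between the groups.

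**Figure D4:**
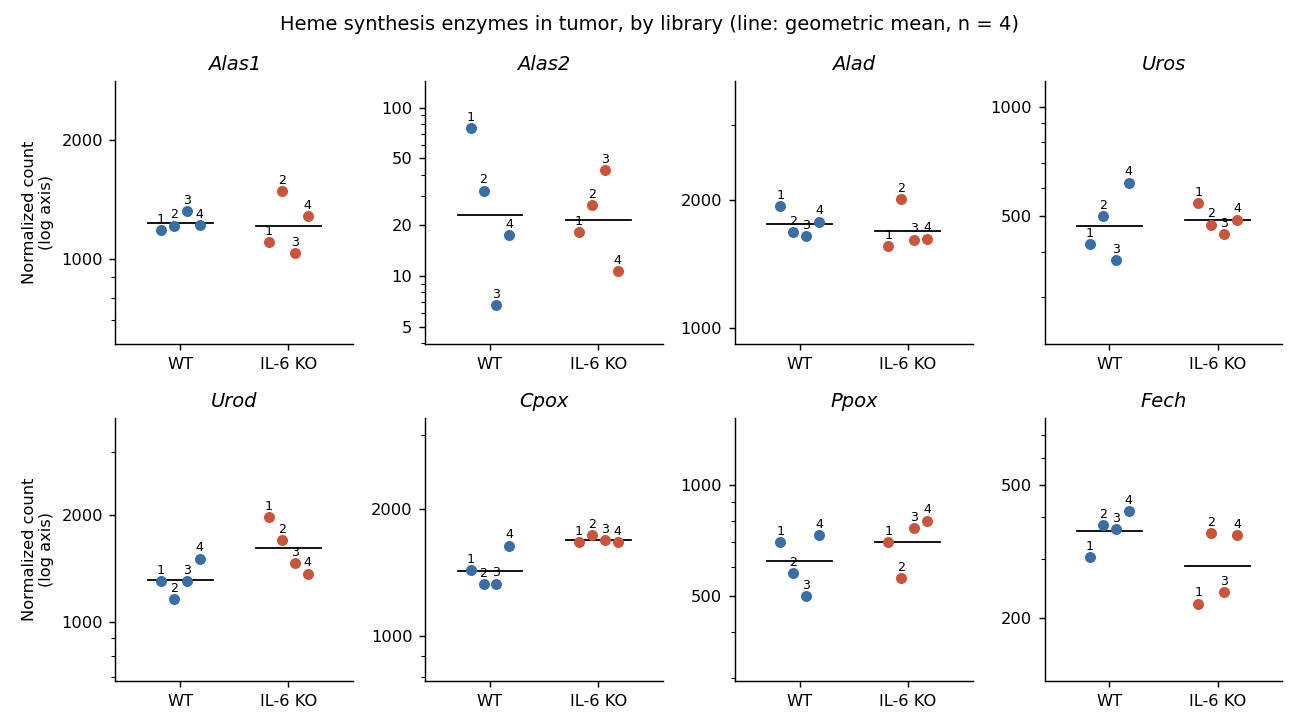
Normalized counts (log axes) of each enzyme in the 4 WT and 4 IL-6 KO tumor libraries, numbered, with a line at the geometric mean of each group (n = 4). Cpox is the only enzyme without overlap between the groups, and Alas2, at 6.69 to 75.9, is the lowest and most scattered.

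Genotypes were compared within each table by limma on log2(normalized count + 1), with p adjusted over all genes tested by the Benjamini-Hochberg method and a threshold of 0.05. In stroma 0 of the 8 enzymes passed, against 1 of 12202 genes in all (0.0082%), and at an unadjusted p under 0.05 there was 1 enzyme against 1117 genes. Of the 8, 6 had a lower and 2 a higher mean in IL-6 KO, with a median log2 fold change of -0.66. Over all genes tested, 50.6% were lower and the median was -0.01. The spread in stroma was wide, with a median residual SD of 0.86 on the log2 scale over all genes and 0.73 over the enzymes.

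Fech had the smallest unadjusted p (0.0148, limma), with a log2 fold change of -0.86 (standard error, SE, 0.30, adjusted p = 0.440 by limma). Groups that do not overlap were found for 5.79% of genes in stroma, and nothing particular to the enzymes is read from 1 case in 8. Alas1 had a log2 fold change of 1.12 (SE 0.55, adjusted p = 0.558 by limma) and Cpox one of -1.08 (SE 0.57, adjusted p = 0.583 by limma). The log2 fold changes of Alas2, Uros and Alad were -0.73, -0.71 and -0.61, with standard errors of 0.43, 0.43 and 0.38. These sizes moved with single libraries. Leaving out IL-6 KO stroma 3 took Alas1 to 1.66, Alas2 to -1.09, Alad to -0.93, Uros to -0.96 and Cpox to -1.68. Leaving out IL-6 KO stroma 4 took Alas1 to 0.75 and Alas2 to -0.34, and leaving out IL-6 KO stroma 1 took Alad to -0.32, Uros to -0.38 and Cpox to -0.52. Urod (-0.20) and Ppox (0.17) had the smallest differences, with standard errors of 0.44 and 0.43, and each turned its direction when a single library was left out. For Urod, leaving out IL-6 KO stroma 1 gave 0.06 and leaving out IL-6 KO stroma 4 gave 0.09. For Ppox it was -0.28 without IL-6 KO stroma 3 and just below 0 without WT stroma 3. A p that misses the threshold does not show that the genotypes had equal levels. IL-6 KO library 4 was among the 2 lowest stroma libraries for 7 of the 8 enzymes and IL-6 KO library 1 for 6.

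In tumor 0 of the 8 enzymes passed, against 2870 of 14493 genes (19.8%), and at an unadjusted p under 0.05 there were 2 enzymes, Cpox and Urod, against 5091 genes. The direction was even, with 4 enzymes higher and 4 lower in IL-6 KO and a median log2 fold change of 0.01. Libraries were closer here, with a median residual SD of 0.21 over all genes and 0.22 over the enzymes.

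Cpox had a log2 fold change of 0.24 (SE 0.08, adjusted p = 0.0641 by limma). Groups that do not overlap were found for 25.6% of tumor genes, a higher share than 1 enzyme in 8. Without WT tumor library 4 Cpox had a log2 fold change of 0.31 and passed (adjusted p = 0.0280 by limma), beside 2226 of 14493 genes in all. With each library's trend over GC content and length removed, Cpox (0.33, adjusted p = 0.0347 by limma) and Alad (-0.32, adjusted p = 0.0293 by limma) passed. Over all genes 2136 of 14493 passed under that setting. As deposited, Alad had a log2 fold change of -0.05 (SE 0.10, adjusted p = 0.726 by limma). Urod had 0.29 (SE 0.13, adjusted p = 0.126 by limma) and Fech -0.35 (SE 0.18, adjusted p = 0.208 by limma). Ppox (0.17, SE 0.15) turned to -0.02 with the GC and length trend removed. Alas1 (-0.02, SE 0.11), Uros (0.05, SE 0.15) and Alas2 (-0.11, SE 0.68) each took either sign as single libraries were left out. Neutrophil markers moved with host genotype in tumor, where 12 of 14 passed the test and all 12 were higher in IL-6 KO, against 10.6% of all genes called higher. Their mean log2 value was 7.18 to 7.60 in WT tumor and 8.19 to 9.26 in IL-6 KO tumor, and their part in the enzymes' values was not tested. Whether genotype differences varied between stroma and tumor was not tested.

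**Figure D5:**
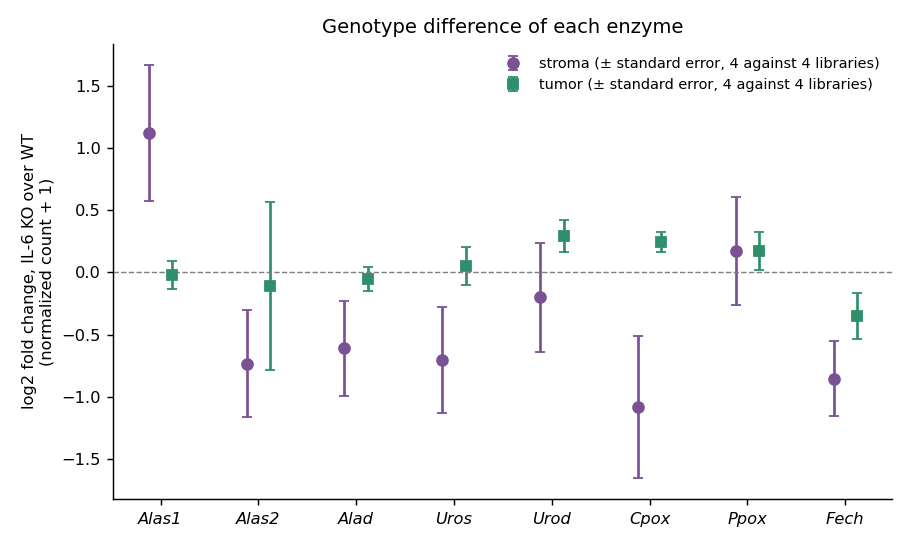
Log2 fold change of IL-6 KO over WT for each enzyme in stroma (circles) and tumor (squares), with bars for the standard error (4 against 4 libraries, limma). Stroma values run from -1.08 for Cpox to 1.12 for Alas1 with wide bars, tumor values from -0.35 to 0.29, and in neither table did an enzyme pass the threshold.

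The 8 enzymes stood in different orders per kb of the longest coding transcript. In stroma the order of mean log2 levels was Alas2 (10.64), Ppox (9.99), Cpox (9.71), Urod (9.47), Alad (9.29), Fech (8.70), Uros (7.80) and Alas1 (5.83). Neighbours were compared within libraries by exact sign-flip permutation tests (two-sided, adjusted over the 14 neighbour pairs of both tables). In stroma Alad stood above Fech and Fech above Uros in 8 of 8 libraries (exact adjusted p = 0.0156 for each), and Uros above Alas1 in 7 of 8 (exact adjusted p = 0.0365). The place of Alad above Fech held only with the longest transcript length, as given below. Alas2 stood above Ppox in 6 of 8 libraries (exact adjusted p = 0.0547), and Ppox, Cpox, Urod and Alad were not separated beyond their spread. Without IL-6 KO stroma library 1, 5 of the 7 neighbour pairs passed in place of 3, with Cpox then above Ppox.

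In tumor the order was Alad (10.43), Urod (9.93), Cpox (8.97), Ppox (8.50), Alas1 (8.49), Uros (8.09), Fech (5.62) and Alas2 (3.46). All neighbours but Ppox and Alas1 (exact adjusted p = 0.969) were separated, 5 of them in 8 of 8 libraries (exact adjusted p = 0.0156) and Alad over Urod in 7 of 8 (exact adjusted p = 0.0273). With the median transcript length or with no division by length, Alas2 was still highest and Alas1 lowest in stroma, and Fech and then Alas2 were lowest in tumor. Other ranks changed. In stroma Fech stood above Alad both with the median length and with no division by length, the reverse of the order above. With the median length Urod stood above Alad at the top in tumor, with 5 neighbour pairs separated in place of 6.

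As shares of the summed per-kb level of the 8 enzymes within a library, Alas2 made up 30.9 ± 2.51% in WT stroma and 26.2 ± 5.73% in IL-6 KO stroma (SD, n = 4 each). Its share was 0.42 ± 0.38% in WT tumor and 0.30 ± 0.18% in IL-6 KO tumor (SD, n = 4 each). Alas1 made up 0.61 ± 0.21% in WT stroma, 2.85 ± 2.54% in IL-6 KO stroma, 9.59 ± 1.06% in WT tumor and 8.83 ± 1.15% in IL-6 KO tumor (SD, n = 4 each). Fech, the iron-inserting enzyme, held 8.36 ± 0.62% in WT stroma and 6.73 ± 2.39% in IL-6 KO stroma, against 1.47 ± 0.20% and 1.09 ± 0.26% in tumor (SD, n = 4 each). The shares of Fech rest on its longest transcript of 6571 bases, where its median transcript length is 2344.5. With the longest transcripts, Alad was the main component in tumor (with the median lengths Urod stood above it), with 37.1 ± 2.05% in WT and 33.3 ± 2.75% in IL-6 KO, and held 11.6 ± 1.42% and 10.6 ± 2.09% in stroma (SD, n = 4 each). The share of Ppox was 12.8 to 16.1% in WT stroma and 16.7 to 28.7% in IL-6 KO stroma. These ranges do not touch, with a narrow gap, while the normalized counts of Ppox overlapped between the genotypes. The shares of Cpox in tumor, at 11.74 to 12.763% in WT and 12.772 to 14.15% in IL-6 KO, were parted by a far narrower gap and all but touched. Shares were worked out with the longest transcript lengths only, and no share of all genes is at hand to set beside these cases. A share also moves with the levels of the other enzymes. These shares were noticed after their values were seen and were not tested.

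Some reads of some members may be hard to tell apart from those of other genes, which was not measured. Stretches of Cpox are at least 97% identical over at least 150 bases to transcripts of Nlrc3, Nol4l, Pde4dip and Slfn5. Alas1, Alas2, Uros, Cpox and Ppox each overlap an antisense gene, and the strand setting of the counting is not given in the sources used here. Alad, Urod and Fech had neither.

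The genes whose profiles over the 8 stroma libraries were most like that of Alas2 were Ulk1, Ank1, Samd14, H2bc13 and Gm16867. Their root mean square (RMS) difference from Alas2 on the centred log2 scale was 0.14 to 0.20, among 10973 genes and against an RMS deviation of 0.72 for Alas2 itself. Ank1, the ankyrin of the red cell membrane, is also one of the erythroid markers. Of the other enzymes Urod came nearest, at rank 116 with a difference of 0.36, and Alas1 was far away at rank 8899 with 1.59. Among those most like Alas1 in stroma were Cd177, AB124611, Rasgrp4 and Nadk, at 0.18 to 0.27 against an RMS deviation of 0.96 for Alas1.

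In tumor Alas2 was nearest to Ermap, Gm18853, Hbb-b1, Inpp4b and Hba-a1, at 0.31 to 0.53 among 12074 genes, of which Hbb-b1 and Hba-a1 encode globins and Ermap a red cell membrane protein. Alas1 in tumor was nearest to Rpl37, Tgfb1, A630072M18Rik, Smarcc2 and Emd, at 0.04 to 0.07. Its own RMS deviation there was 0.15, so that many genes lie as near. The points compared are libraries that share a scaling, and no test was made of these likenesses.

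Partners of the pathway were read from a list of 20 genes for mitochondrial carriers, iron-sulfur cluster assembly and porphyrin transport. In stroma 0 of 18 tested genes passed (limma, 0.0082% over all genes), 2 had an unadjusted p under 0.05 (9.15%), 11 were lower in IL-6 KO (50.6%) and the median log2 fold change was -0.30. Slc25a37, mitoferrin 1, which brings iron into erythroid mitochondria, had normalized counts of 9632, 11836, 7924 and 11216 in WT and 3491, 6187, 9315 and 3771 in IL-6 KO. Its log2 fold change of -0.93 (SE 0.35) had a limma adjusted p of 0.463, and library 3 was again the only IL-6 KO library within the WT range. Isca1 (-0.86), of iron-sulfur cluster assembly, and Abcb6 (-0.88) and Tspo (-1.36), linked to porphyrin transport, did not pass either.

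In tumor 7 of the 20 partner genes passed and all 7 were higher in IL-6 KO, against 19.8% of all genes called and 10.6% called higher. Glrx5, a glutaredoxin of iron-sulfur cluster transfer, had 2265, 1825, 2067 and 2137 in WT and 3087, 2887, 3394 and 2860 in IL-6 KO (log2 fold change 0.56, SE 0.09, adjusted p = 0.00386 by limma). Iscu, the cluster scaffold, rose by 0.38 (adjusted p = 0.00554 by limma) and Nfs1, the cysteine desulfurase that supplies its sulfur, by 0.43 (adjusted p = 0.00778 by limma). Tspo rose by 0.47 (adjusted p = 0.0194 by limma). Slc25a37 had a log2 fold change of 0.09 in tumor (SE 0.07, adjusted p = 0.369 by limma). The neutrophil markers, with the values given above, were higher in the same libraries, and their part in these differences was not tested.

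The list for heme breakdown, export and sensing held 12 genes. In stroma 0 of 11 tested genes passed (limma), 3 had an unadjusted p under 0.05, beside 9.15% of all genes, 10 were lower in IL-6 KO, beside 50.6%, and the median log2 fold change was -0.54. Slc48a1, a heme transporter, had 461, 666, 659 and 395 in WT and 54.8, 300.1, 148 and 186 in IL-6 KO, with a log2 fold change of -1.86 (SE 0.48, adjusted p = 0.324 by limma). Abcg2, a porphyrin exporter, had a log2 fold change of -1.29 and Eif2ak1, the heme-sensing kinase HRI, one of -0.99, with limma adjusted p = 0.440 and 0.461. Hmox1, the inducible heme oxygenase, was at 0 to 13.3 in stroma and below the filter.

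In tumor 2 of 11 genes of that list passed, beside 19.8% of all genes called. Both were higher in IL-6 KO, beside the 10.6% of all genes called higher. Nothing particular to the list is read from that count. Mafk, a partner of the heme-sensing repressor BACH1, rose by a log2 fold change of 0.51 (adjusted p = 0.00671 by limma) and Hmox2, the constitutive heme oxygenase, by 0.37 (adjusted p = 0.0222 by limma). Bach1 itself had 0.14 (adjusted p = 0.171 by limma), Hmox1 -0.15 (adjusted p = 0.629 by limma) and Nfe2l2, which encodes NRF2, -0.23 (adjusted p = 0.0768 by limma).

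Among the erythroid markers in stroma 0 of 22 passed (limma), 7 had an unadjusted p under 0.05 (9.15% over all genes) and 20 were lower in IL-6 KO (50.6% over all genes), with a median log2 fold change of -0.72, close to that of the enzymes. Klf1 and Gata1, erythroid transcription factors, had log2 fold changes of -0.29 and -0.30, the band 3 gene Slc4a1 -0.19 and the transferrin receptor gene Tfrc 0.27. The globins Hba-a1 and Hbb-bt had -0.68 and -0.90. In tumor 1 of 15 erythroid markers passed, lower in IL-6 KO, against 9.16% of all genes called lower. Neutrophil markers in stroma gave 0 of 14 passing, 4 with an unadjusted p under 0.05 and 12 higher in IL-6 KO. Of the other lists none gave a passing gene in stroma (limma, 12 B-lineage, 5 monocyte and macrophage, 1 T and NK, 5 mesenchymal and endothelial and 3 megakaryocyte genes tested), where unadjusted p was under 0.05 for 1 T and NK and 2 megakaryocyte genes. In tumor 3 of 12 B-lineage, 2 of 8 monocyte and macrophage, 0 of 3 T and NK, 1 of 8 mesenchymal and endothelial and 0 of 2 megakaryocyte genes passed, beside 19.8% of all tumor genes.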

How the data were processed

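RNA of sorted mCherry+ (tumor) and mCherry- (stroma) bone marrow cells was sequenced by the authors after ribosomal RNA depletion, in 4 libraries per group. Per the labels and the study's methods, the authors quantified reads with Salmon 1.3.0 against mm10 with GC and sequence bias corrections and normalized them with DESeq2 1.28.1. They deposited 1 table of normalized counts, a scaled signal and not whole reads, for each compartment. The authors also deposited result tables with mean, log2 fold change, standard error, Wald statistic and p-values, which were not used. Because the values are not whole reads, no count model was run, and depth, counting intervals and floors are unknown.

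Groups and library numbers were taken from the labels. Each table was tested alone with limma 3.58.1 (R 4.3.3, trend) on log2(normalized count + 1) for genes with a mean over 10. This scale understates changes of low genes. Exact permutation tests were used for the Alas2 to Alas1 ratio and exact sign-flip tests for the order of levels per kb of the longest coding transcript in GENCODE vM21, where 13338 of 13344 and 15069 of 15080 gene identifiers were found. RefSeq promoters were searched over 250 bases, and similar transcripts were sought with BLAST 2.17.0 (97% identity over 150 bases). Scripts were tested on simulated data. Tables and figures were made with Python 3.11.15, pandas 2.3.3 and matplotlib 3.10.9.

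The members, 2 pathway lists and 7 marker lists were chosen with earlier results of these data known. The genes named are the 8 enzymes, from each pathway list up to 4 genes with the smallest p per table plus Hmox1, Bach1 and Slc25a37, a fixed set of markers, and the 5 genes most like Alas1 and Alas2. A few genes named by these rules are left unreported. Alternatives were pseudocounts of 0.5 and 5, no filter or one of 50, quantile normalization, median centring, array weights, a replicate block, removal of GC and length trends (loess, span 0.3), other lengths, and each library left out.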

Additional observations from a re-analysis of the deposited data

Results flagged for a closer look

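Of 36 groups of 4 libraries tested for a library far from the rest, 3 were flagged, and chance flags about 1 in 20. Uros in WT stroma library 3 had a normalized count of 301 against 577 to 611 in the other WT libraries, a gap of 0.920 of the group's range (Dixon's test at 95%). Fech in the same library had 2766 against 3955 to 4157, a gap of 0.878 of the range. Alad in IL-6 KO tumor library 2 had 2007 against 1557 to 1623, a gap of 0.836 of the range.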

How the results depend on the processing

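No enzyme passed in stroma under any alternative run, with limma adjusted p between 0.177 and 0.998. In tumor 0 passed under each alternative but 2. With the GC and length trend removed 2 passed, Alad and Cpox, beside 2136 of 14493 genes. Without WT tumor 4 Cpox passed, beside 2226 of 14493 genes. The range was 0 to 1 enzymes over the libraries left out in turn, and the cause was not tested. The Alas2 to Alas1 ratio in stroma ran from -2.76 to -1.09 as libraries were left out. It passed only without IL-6 KO stroma 3, the IL-6 KO library that lay above every WT library. In tumor it ran from -0.68 to 0.48, and quantile normalization gave 0.26. Quantile normalization also turned Alas2 in tumor to 0.22, and the GC and length removal turned Ppox in tumor to -0.018. Leaving out single libraries gave Urod -0.54 to 0.088 and Ppox -0.28 to 0.47 in stroma, and Alas1 -0.12 to 0.056, Alas2 -0.67 to 0.44 and Uros -0.054 to 0.18 in tumor. The number of neighbour pairs separated per kb ran from 2 to 5 in stroma and stayed at 6 in tumor as libraries were left out, where the median transcript length gave 5 and no division by length 4. Over all tumor genes 1572 to 3328 passed as libraries were left out, against 2870 with all of them, and in stroma 1 to 3, with 4 under array weights.

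The replicate numbers were not taken to pair samples, since deviations of equal-numbered libraries correlated at -0.03 to 0.13 in stroma and at or below 0 in tumor, and no such sharing is stated. With the replicate block 0 enzymes passed in either table, 2230 tumor genes passed, and the ratio had an exact sign-flip p of 0.25 in stroma and 1 in tumor, where 4 pairs allow no p below 0.125. No library correlated best with its own number. Read depth, which the values do not hold, limits what can be said of Alas2 in tumor.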
